A study of Mus musculus with 12 samples.

Results

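The ephrins, Eph receptors, semaphorins and plexins are ligands and receptors that steer growing axons. Their poly(A) sites (PASs, the positions at which transcripts are cleaved and polyadenylated) are described here as they were listed for the mouse hippocampus. Members were chosen by a pattern of gene symbols, with earlier results of these data known. The pattern took every gene named Epha, Ephb, Efna or Efnb with a number, Sema3 to Sema7, or Plxna to Plxnd. This gave 222 PASs in 50 genes, out of 56204 entries in 16627 genes in all. Of the 51 symbols of this form in the mouse annotation used for names, leaving out antisense transcripts, 50 were listed, and *Epha1* was not analysed here.

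The list came from 12 libraries of 3′READS, a method that sequences the 3′ ends of polyadenylated RNA, made from hippocampal mini-slices of C57BL/6 mice aged 3 months by the labels, with the dentate gyrus trimmed off. All slices were wild-type tissue of male mice, kept in perfused chambers, and those of each animal were divided between LTP and control treatment. In the LTP groups, chemical long-term potentiation was induced with 50 uM forskolin followed by forskolin with 30 mM KCl and 10 mM Ca2+, and tissue was frozen 1 hr or 3 hr afterwards (3 animals per time point). The control groups, also 3 animals for each time, received vehicle with 0.2% DMSO. The 12 columns of read numbers bear names that match no sample label, so they were not used. A sum over all 12, which needs no sample label, was not made either. No level and no effect of LTP is given below, the labelled tissue was not checked against marker genes, and the number of reads behind each site was not used. Each site therefore counts once, be it a major or a rarely used one. The authors reported fewer PASs in fewer genes, and their supplement counts PASs under limits on reads and relative abundance. No such limit was applied here. The share of PASs that the paper placed in introns was well below the intronic shares given below for the whole list and for all members.

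Ephrins bind Eph receptor tyrosine kinases on a neighbouring cell. The A type ephrins are held in the membrane by a lipid anchor, the B type ephrins span it, and signals can run into both cells. Semaphorins signal through plexins, whose cytoplasmic part acts on small GTPases, and the secreted class 3 semaphorins mostly need a neuropilin as co-receptor. In the adult hippocampus both systems are known for roles in dendritic spines and synapses. A PAS in an intron ends the transcript before the last coding exons, which in a receptor can remove the transmembrane or cytoplasmic part. A choice between PASs within the last exon leaves the protein as it is and sets the length of the 3′UTR.

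Each PAS of the list carries a region label. The label exon3 was read as the 3′-most exon, exon3ext as sequence beyond it, and intron_Comp and intron_Skip as introns, by their names in a composite terminal exon and in a skipped terminal exon. UA was read as upstream antisense, exon5 as a first exon and exonI as an internal exon. The order of the sites in the guidance genes followed these readings. All 66 intronic PASs of members with an exon3 site lay upstream of the first exon3 PAS, and all 11 exon3ext PASs lay downstream of the last one. All 10 UA sites lay upstream of every other PAS of their gene and were named with the opposite strand. None of the 222 PASs was also listed under another gene. Positions are given as in the list, whose build is mm9 in the submitters' processing notes. No sequence is shown, since no genome of that build was used here.

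The guidance genes carried a median of 3 listed PASs, against 2 over the whole list. At least 2 PASs were listed for 42 of the 50 genes (84.0%), while the share over all listed genes was 67.1%. Without the UA sites, which lie on the opposite strand, 40 members had the 2 PASs that alternative polyadenylation needs, since *Plxna2* and *Sema4c* had a single other site. The whole list was not counted without UA sites, so the 40 cannot be set against 67.1%. Counting exon3 sites alone, 31 of the 49 members with such a site had 2 or more (63.3%, against 49.5% in the whole list). An intronic PAS was listed for 20 members (40.0%, against 33.5%). These shares stand side by side as descriptions, since genes of a list are not replicates and no test was made. By label, the members held 128 exon3, 61 intron_Comp, 8 intron_Skip, 11 exon3ext, 10 UA, 3 exon5 and 1 exonI sites.

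**Figure D1:**
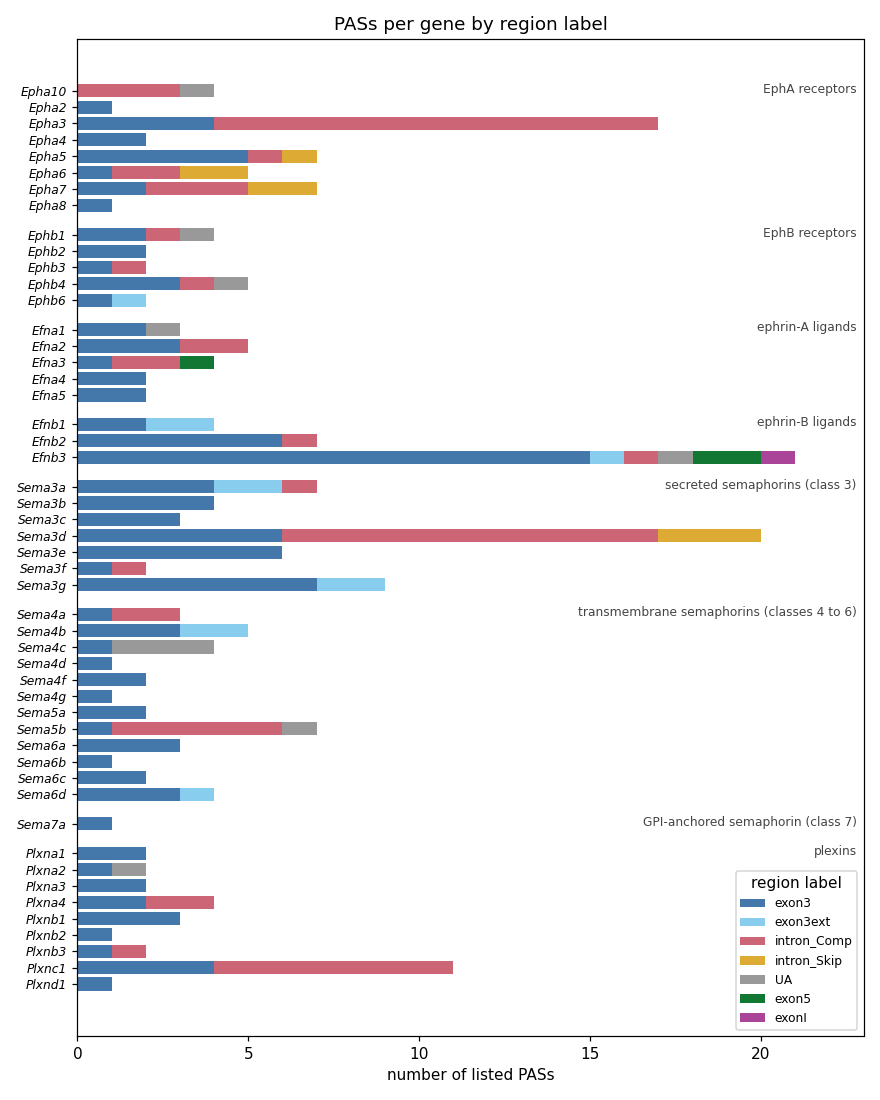
Number of listed PASs (horizontal axis) of each of the 50 guidance genes, grouped by family and coloured by region label. Efnb3 (21), Sema3d (20), Epha3 (17) and Plxnc1 (11) stand out, with mostly exon3 sites in Efnb3 and mostly intronic sites in the other three.

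The sites were spread unevenly among the genes. *Efnb3*, which encodes the transmembrane ligand ephrin-B3, had 21 PASs, the most of any member. *Sema3d*, a secreted semaphorin, had 20, the receptor gene *Epha3* had 17, *Plxnc1*, the only plexin of class C, had 11, and *Sema3g* had 9. In the whole list, 32 genes had as many PASs as *Efnb3* or more, 45 as many as *Sema3d* and 111 as many as *Epha3*. At the other end, 8 members were listed with a single PAS, labelled exon3 in each case. They were the receptors *Epha2*, *Epha8*, *Plxnb2* and *Plxnd1* and the semaphorins *Sema4d*, *Sema4g*, *Sema6b* and *Sema7a*, the last being the semaphorin with a lipid anchor. With 1 site, no alternative polyadenylation can be described for these genes from the list.

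The Eph receptors held more intronic than exon3 sites only with *Epha3* counted. The 13 listed receptor genes held 30 intronic and 25 exon3 PASs, an intronic share of 54.5% (95% Wilson interval 41.5% to 67.0%). In the whole list, with no limit on reads, the share was 32.7%. The 8 EphA genes held 27 intronic and 16 exon3 PASs (62.8%, interval 47.9% to 75.6%), and the 5 EphB genes 3 and 9. Of the intronic PASs, 13 were in *Epha3* alone. The other receptors held 17 intronic and 21 exon3 PASs (44.7%), a step taken after the values of *Epha3* were seen. That share lay within the interval for all 13 genes and above the share of the whole list. The 9 plexins held 10 intronic and 17 exon3 PASs (37.0%, interval 21.5% to 55.8%). The 20 semaphorins held 23 and 53 (30.3%, interval 21.1% to 41.3%), and the 8 ephrins 6 and 33 (15.4%, interval 7.25% to 29.7%). These intervals cover counting error only, and the sites of a gene are not independent of each other. Over all members the share was 35.0% (interval 28.7% to 41.9%), and it was 23.5% (interval 17.4% to 30.9%) when *Epha3*, *Sema3d* and *Plxnc1* were left out, a step chosen after their values were seen. Those 3 genes held 34 of the 69 intronic PASs. The whole list kept its own genes with many intronic PASs, so 23.5% is not like for like with 32.7%.

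**Figure D2:**
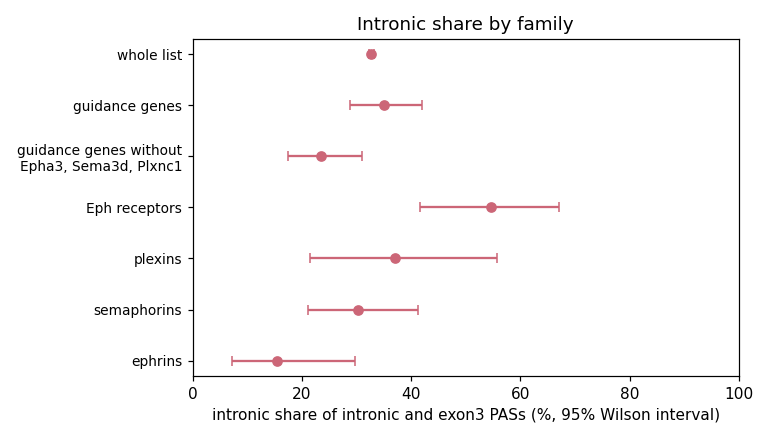
Share of intronic PASs among intronic and exon3 PASs (horizontal axis, percent), with 95% Wilson intervals as bars, for the whole list, all 50 guidance genes, the guidance genes without 3 of them, and the genes joined into 4 groups (Eph receptors, plexins, semaphorins and ephrins). Of these 4 groups, the Eph receptors lie highest at 54.5% and the ephrins lowest at 15.4%, and the value for all members falls from 35.0% to 23.5% without Epha3, Sema3d and Plxnc1.

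*Epha3* encodes a receptor for ephrin-A ligands (ENSMUSG00000052504.7, minus strand of chromosome 16). Its 13 intronic PASs, all labelled intron_Comp, fell into 2 stretches. A first set of 6 lay between positions 63856445 and 63812458, 310809 to 266822 nt upstream of the first exon3 PAS. After a gap of 202036 nt, the other 7 lay between 63610422 and 63561698, 64786 to 16062 nt upstream of it. The 4 exon3 PASs, at 63545636, 63545095, 63545038 and 63545007, were by contrast packed into 629 nt. In the whole list, 74 of the 5572 genes with an intronic PAS had as many intronic sites as *Epha3* or more.

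*Epha6* and *Epha7* encode further EphA receptors, and their sites reached far upstream as well. For *Epha6* (ENSMUSG00000055540.15, minus strand of chromosome 16), 4 intronic PASs were listed against a single exon3 PAS at 59653309. The farthest, labelled intron_Skip, was at 60467713 and thus 814404 nt upstream of the exon3 PAS, the largest such distance among the members. Those labelled intron_Comp followed at 60417147 and 60172682, and the last, intron_Skip again, at 59759983 was still 106674 nt away. For *Epha7* (ENSMUSG00000028289.12, plus strand of chromosome 4), 1 of the 5 intronic PASs lay at 28758102, 135141 nt upstream, and the other 4 were grouped between 28871115 and 28875613, 22128 to 17630 nt upstream. That group holds both labels, with intron_Skip sites at 28873485 and 28873677, 192 nt apart. The exon3 PASs of *Epha7*, at 28893243 and 28894661, were 1418 nt apart.

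*Epha5* (ENSMUSG00000029245.16, minus strand of chromosome 5) had the opposite arrangement. Only 2 intronic PASs were listed, intron_Comp at 84495313 and intron_Skip at 84494540, both within 7824 nt of the first exon3 PAS. Its 5 exon3 PASs, at 84487489, 84487378, 84486714, 84484945 and 84483786, covered 3703 nt. *Epha10* (ENSMUSG00000028876.7, plus strand of chromosome 4), a receptor without an active kinase, was the only member with no exon3 PAS. It was listed with a UA site at 124557683 and 3 intron_Comp PASs at 124560276, 124560349 and 124561485, the last 3802 nt downstream of the UA site, so that no intronic set could be set against a 3′UTR set. For *Epha4*, which encodes a receptor that binds ephrins of both types, 2 exon3 PASs 1957 nt apart were listed and no intronic site.

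Fewer sites were listed for the EphB receptors, which mostly bind the transmembrane ephrins. The 5 genes had 15 PASs, and none had more than 1 intronic site. In *Ephb1* (ENSMUSG00000032537.15, minus strand of chromosome 9) it was at 101941519, 116228 nt upstream of the first exon3 PAS, and the UA site at 102260882 lay a further 319363 nt upstream. In *Ephb3* (ENSMUSG00000005958.15, plus strand of chromosome 16) the intron_Comp PAS at 21209965 was 13412 nt upstream of the single exon3 PAS. In *Ephb4* (ENSMUSG00000029710.15, plus strand of chromosome 5) it was at 137804005, 11062 nt upstream of the first of 3 exon3 PASs. *Ephb2* and *Ephb6*, the latter a receptor without kinase activity, had no intronic PAS. Their sites were an exon3 pair 681 nt apart in *Ephb2*, and in *Ephb6* an exon3 PAS followed by an exon3ext PAS 447 nt downstream.

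Among the 9 plexins, intronic PASs were listed for 3. *Plxnc1*, the receptor of *Sema7a* (ENSMUSG00000074785.5, minus strand of chromosome 10), had 7, all intron_Comp, at 94351929, 94333566, 94315593, 94299954, 94288397, 94287096 and 94261634. They were spaced over 90295 nt, and neighbours lay 1301 to 25462 nt apart, with the nearest 6664 nt upstream of the first of 4 exon3 PASs. *Plxna4* (ENSMUSG00000029765.12, minus strand of chromosome 6), a receptor for class 3 and class 6 semaphorins, had 2, at 32494612 and 32265872. These were 395503 and 166763 nt upstream of an exon3 pair that was itself only 99 nt apart. *Plxnb3* (ENSMUSG00000031385.14, plus strand of chromosome X) had 1 at 71003594, 14255 nt upstream of its exon3 PAS. *Plxna1*, *Plxna2*, *Plxna3*, *Plxnb1*, *Plxnb2* and *Plxnd1* were listed with no intronic PAS and with 1 to 3 exon3 sites each.

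**Figure D3:**
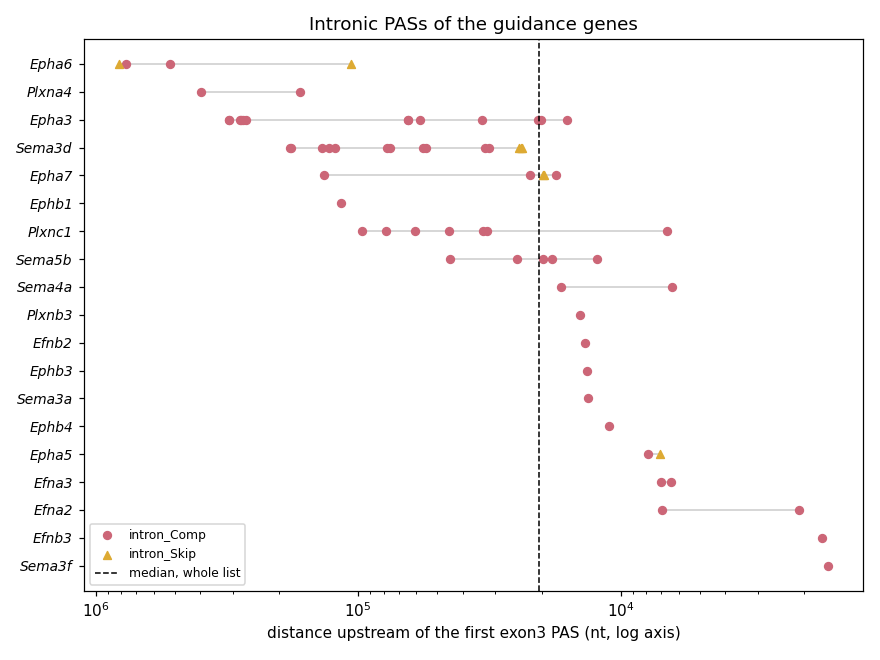
Distance of each intronic PAS upstream of the first exon3 PAS of its gene (horizontal axis, nt, log scale) in the 19 guidance genes with both kinds of site, with circles for intron_Comp, triangles for intron_Skip and a dashed line at the median of the whole list, 20421 nt. Epha6, Plxna4 and Ephb1 have all their intronic sites more than 100000 nt upstream, while Efnb3 and Sema3f have theirs within 2000 nt.

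On the ligand side, *Sema3d* held 14 of the 29 intronic sites (ENSMUSG00000040254.11, plus strand of chromosome 5). This was more than in any other member, and 51 genes of the whole list had as many or more. The 11 labelled intron_Comp ran from 12405369 to 12554629, 180945 to 31685 nt upstream of the first exon3 PAS. The 3 labelled intron_Skip followed close together at 12562004, 12562346 and 12562634. Next came *Sema5b* (ENSMUSG00000052133.16, plus strand of chromosome 16), a transmembrane semaphorin with thrombospondin repeats, which had 5 intronic PASs and a single exon3 PAS. Its UA site at 35539717 marks the upstream end of the listed sites, the first intronic PAS at 35619867 followed 80150 nt later, and the other 4 lay 24703 to 12319 nt upstream of the exon3 PAS at 35664342. In *Sema4a* (ENSMUSG00000028064.17, minus strand of chromosome 3) intron_Comp PASs at 88256700 and 88246248 preceded the exon3 PAS by 16819 and 6367 nt. *Sema3a* and *Sema3f* had 1 intronic PAS each, 13275 and 1619 nt upstream.

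The intronic sites of the ephrins were few and lay at most 13606 nt upstream of the first exon3 PAS. These distances were not set against the length of the genes. *Efna2* (ENSMUSG00000003070.6, plus strand of chromosome 10) had 2 at 79645361 and 79650199, 6920 and 2082 nt upstream of the first of its 3 exon3 PASs. *Efna3* (ENSMUSG00000028039.11, minus strand of chromosome 3) had 2 at 89126354 and 89125751, 7029 and 6426 nt upstream, after an exon5 site at 89126775. *Efnb2* and *Efnb3* had 1 each, 13606 and 1709 nt upstream. In *Efna1*, *Efna4*, *Efna5* and *Efnb1* none was listed.

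Over the 66 intronic PASs with an exon3 site in their gene, the median distance upstream was 33082 nt, where the 12834 such sites of the whole list had a median of 20421 nt. It was 60623 nt over 37 sites in the receptors (Eph and plexin) and 23968 nt over 29 sites in the ligands (ephrins and semaphorins). Without *Epha3*, *Sema3d* and *Plxnc1*, these medians were 22128 nt over 17 sites in the receptors and 12319 nt over 15 sites in the ligands, and the median over the members was 17225 nt, so that the order of members and whole list turned. More than 100000 nt upstream lay 19 of the 66 sites, in 6 genes, among them *Epha3* and *Sema3d*. The share of such sites in the whole list was not counted. The upper quartile of the distances was 120919 nt in the members and 58081 nt in the whole list. It was 60025 nt in the members without *Epha3*, *Sema3d* and *Plxnc1*. The intron_Skip label was given to 11.6% of the intronic PASs of the members and to 11.7% of those in the whole list.

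Within the last exon, the 31 members with 2 or more exon3 PASs had a median of 1418 nt between the outermost ones (95% interval of the median, from the binomial distribution, 833 to 1957 nt). The median was 817 nt over the genes of the whole list. Where the outermost sites lie in the same 3′UTR, this span is the length that a shift between them would add or remove. That was not checked against exon coordinates. Spans reached 5797 nt in the members and 333631 nt in the whole list, where some may not lie within a single exon. The span exceeded 1000 nt in 20 of the 31 members, and 43.4% of all genes with such a span had 1025 nt or more. A span over 2000 nt was found in 9 members, which is 29.0% of the 31, against 21.0% of all genes with such a span. Neighbouring exon3 PASs, in contrast, were a median of 249 nt apart in the members and 259 nt in the whole list.

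*Sema5a*, which like *Sema5b* encodes a transmembrane semaphorin with thrombospondin repeats, had the widest span. Its 2 exon3 PASs lay at 32620296 and 32626093 on the plus strand of chromosome 15 (ENSMUSG00000022231.10), 5797 nt apart, with no site listed between them. Of the 7466 genes with 2 or more exon3 PASs, 131 had a span as wide or wider. After *Epha5* with 3703 nt came 3 secreted semaphorins. In *Sema3e*, the ligand of plexin-D1 (ENSMUSG00000063531.7, plus strand of chromosome 5), 6 exon3 PASs covered 3540 nt and fell into a group of 4 from 14253149 to 14254314 and a pair at 14256440 and 14256689, which was 2126 nt further on. In *Sema3d*, 6 exon3 PASs from 12586314 to 12588948 covered 2634 nt. In *Sema3c* (ENSMUSG00000028780.13, plus strand of chromosome 5), PASs at 17233656 and 17233801 were followed by one at 17236086, for a span of 2430 nt. All of the 6 class 3 semaphorins with 2 or more exon3 PASs had spans of 946 nt or more, and their median was 2109 nt. The 5 plexins with 2 or more had a median of 1272 nt and spans from 99 to 1689 nt. Medians were 1781 nt in 6 transmembrane semaphorins, 1927 nt in 3 ephrin-B genes and 1688 nt in 4 EphA genes. They were lower in 3 EphB genes (681 nt) and 4 ephrin-A genes (414 nt).

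**Figure D4:**
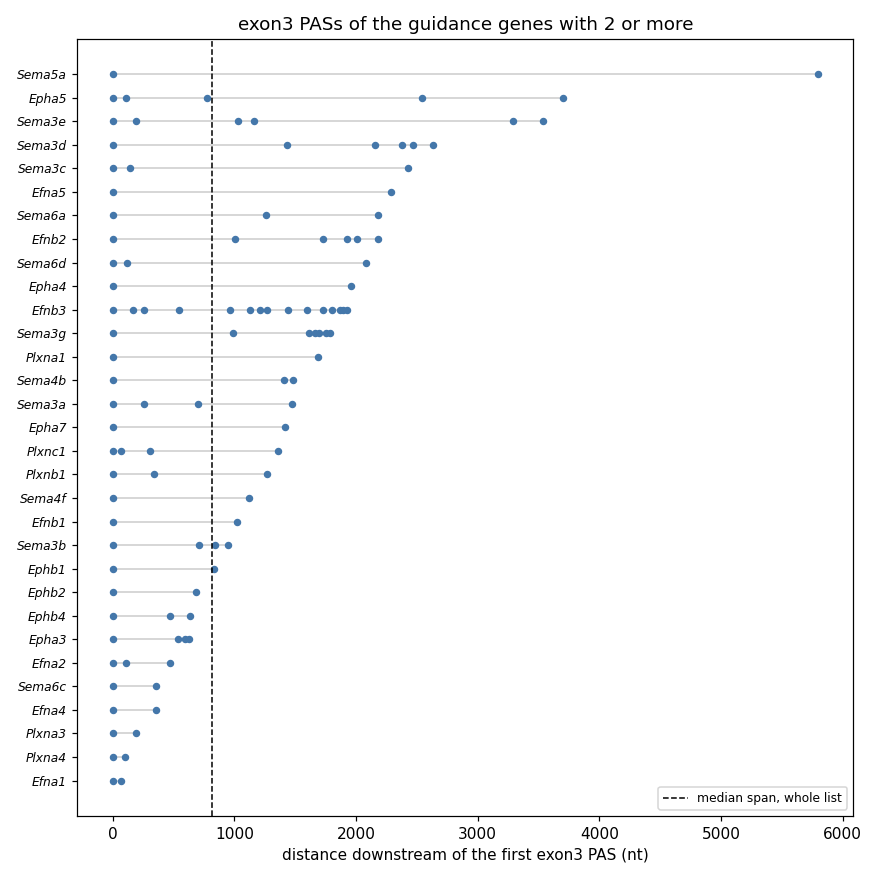
Positions of exon3 PASs as distance downstream of the first one (horizontal axis, nt) in the 31 guidance genes with 2 or more, ordered by span, with a dashed line at the median span of the whole list, 817 nt. Sema5a reaches 5797 nt with 2 sites, while the 15 sites of Efnb3 fill 1927 nt.

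*Efnb3* had the most exon3 sites of any member (ENSMUSG00000003934.5, minus strand of chromosome 11). It was listed with 15 exon3 PASs, from 69369521 to 69367594, and only 3 of the 15075 genes with an exon3 PAS, *Efnb3* included, had 15 or more. Its 15 sites covered 1927 nt, with neighbours 27 to 425 nt apart and a median of 108 nt. Joining those within 100 nt of each other left 8 exon3 PASs. Upstream of these lay exon5 PASs at 69373283 and 69373229, an intron_Comp PAS at 69371230 and an exonI PAS at 69370987, and an exon3ext PAS at 69363407 lay 4187 nt beyond the last exon3 site. *Sema3g* (ENSMUSG00000021904.6, plus strand of chromosome 14) was a smaller case, with 7 exon3 PASs over 1787 nt of which the last 5 stood within 174 nt, followed by exon3ext PASs 78 and 3735 nt beyond them. *Efnb2* had 6 exon3 PASs over 2183 nt.

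PASs beyond the annotated end were listed for 7 members (14.0%, against 12.2% of all genes), at distances of 78 to 4187 nt from the last exon3 PAS. They were *Sema3a*, *Sema3g*, *Sema4b* and *Efnb1* with 2 sites each, and *Sema6d*, *Efnb3* and *Ephb6* with 1 each. UA sites were listed for 8 members (16.0%, against 13.8% of all genes), with 3 in *Sema4c* and 1 each in *Efna1*, *Efnb3*, *Epha10*, *Ephb1*, *Ephb4*, *Plxna2* and *Sema5b*.

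Other genes of axon guidance are given for comparison, from lists of known members of the pathways. Over the whole list, 67.1% of genes had 2 or more PASs and 33.5% an intronic one. The neuropilins *Nrp1* and *Nrp2* had 1 intronic and 1 exon3 PAS each. All 11 genes of the netrin list were in the table, 9 (81.8%) with 2 or more PASs and 5 (45.5%) with an intronic one. *Ntng2*, which encodes a membrane-anchored netrin, had 11 PASs, all intronic, while the netrin receptor gene *Dcc* had a single PAS. Of the 7 slit and Robo genes, 6 (85.7%) had 2 or more PASs and 4 (57.1%) an intronic one. Both repulsive guidance molecule genes, *Rgma* and *Rgmb*, had several PASs, 5 and 10. Of 25 genes that act downstream of the receptors, 23 (92.0%) had 2 or more PASs and 17 (68.0%) an intronic PAS. The most intronic PASs of these were in *Dpysl3*, a collapsin response mediator, with 8 and no exon3 PAS. *Farp2*, an exchange factor that binds plexin-A, followed with 7. *Ngef*, the exchange factor that couples EphA receptors to the cytoskeleton, had 2 intronic and 2 exon3 PASs.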

How the data were processed

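The authors made 3′READS libraries from total RNA of 12 slice samples in 4 groups of 3, mapped the reads with Bowtie2 and took reads with at least 2 unaligned Ts as evidence of a PAS, joining PASs within 24 nt. The build is mm9 in the submitters' processing notes. The table the authors deposited is a single list over all libraries, in which the value used here was the position of each PAS, beside its gene symbol, strand and region label.

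The 12 columns of read counts were not used. Only a column's own name could tie it to a sample, and none of the names fits a label. Column order and column totals were not used for this. Comparisons of LTP with control slices were therefore not made, and replicate error cannot be given.

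Sites were counted per gene with Python 3.11.15, pandas 2.3.3, numpy 2.4.6 and scipy 1.17.1 and drawn with matplotlib 3.10.9, after the counting steps had been tested on a made-up list with known answers. The intronic share is the number of intronic PASs over intronic and exon3 PASs. The exon3 span is the distance between the outermost exon3 PASs of a gene. Gene identifiers came from the Ensembl names of GRCm38, of which no coordinates were taken. The members and lists were chosen with earlier results of these data known. Genes described singly were Eph receptors and plexins with an intronic PAS, other members with 2 or more intronic PASs, the 5 with the most PASs, the 5 with the widest exon3 span and those with no exon3 PAS. Other members were named with their numbers of PASs and the distances between them. The alternatives left out UA sites or sites listed under several genes, counted exon3ext with exon3, took the share over all labels, joined sites within 100 nt or added the neuropilins.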

Additional observations from a re-analysis of the deposited data

How the results depend on the processing

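Of 31 alternative values over 10 results, 28 stayed within 1.5 times the reported count, or within the 95% interval of the reported share or median. Several of the 28 could not have moved. No member PAS was listed under several genes, and UA sites enter neither the exon3 counts nor the intronic share. The neuropilins, with 1 exon3 PAS each, have no exon3 span. The 3 exceptions came from alternatives chosen after seeing the data. Without *Epha3*, *Sema3d* and *Plxnc1*, which hold 34 of the 69 intronic PASs, the intronic share moved from 35.0% to 23.5% and the median distance of intronic PASs from 33082 to 17225 nt. Without *Sema3d*, the median distance in the ligands moved from 23968 to 12319 nt. Without *Epha3* and *Plxnc1*, the median in the receptors went from 60623 to 22128 nt, within its wide interval. Joining PASs within 100 nt gave 38.4%, and the share over all labels was 31.1%. No paired analysis was possible because no result here comes from a test between groups, the read numbers of the single animals not being used. Leaving out replicates was not possible for the same reason. Read depth limits what the list can show, since the number of reads behind a site was not used and the intervals cover counting error only.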
